A study of Homo sapiens with 3 samples.

Results

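The small nucleolar RNA host genes described here are GAS5, SNHG1, SNHG3, SNHG5, SNHG6, SNHG8, SNHG12, SNHG15, SNHG16 and ZFAS1. They are 10 of the 62663 genes that GENCODE places on chromosomes 1 to 22, X and Y, and all 10 belong to its 18866 lncRNA genes. They were chosen by name and not by a rule on measured values, although earlier results of these data were known. A ZBTB11 peak was counted for a gene when the peak lay within 3 kb of any of its annotated transcript starts. The RefSeq gene table places between 1 and 11 snoRNA genes inside every one of the 10, so that the label of host gene held for each of them.

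The data are ChIP-seq peak lists from wild-type, untreated NCI-H1299 cells, a human lung cancer line in long use. The study asked where ZBTB11, one of the ZBTB zinc finger proteins, sits on chromatin. One list comes from a library precipitated with a ZBTB11 antibody (Bethyl, A303-240A) and the other from a library precipitated with normal IgG (CST, 2729S), the negative control. Each antibody has 1 library, so no value could be checked in a second one, and the comparisons made hold for the libraries at hand. Intervals of fragment counts cover counting error only. Intervals of shares treat the genes or peaks counted as independent draws, although the members are a fixed list chosen by name. Neither kind of interval covers the spread between libraries. The IgG list holds peaks on chromosomes 1, 10, 21 and Y alone, and so serves as a control for GAS5, SNHG3 and SNHG12 and for none of the other 7 members. Peak lists hold no expression values, so the cell type could not be checked against marker genes.

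SnoRNAs guide the chemical modification of ribosomal RNA. Box C/D snoRNAs, named SNORD, direct ribose methylation, and box H/ACA snoRNAs, named SNORA, direct the conversion of uridine to pseudouridine. Most human snoRNAs lie in introns of host genes and are released when the host transcript is spliced, and many hosts, coding or not, belong to the class whose transcripts begin with a cytosine and a run of pyrimidines (a TOP start). The non-coding hosts make spliced RNAs that are often short-lived, and several of them, GAS5 and ZFAS1 among them, are studied in cancer.

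The sequence that the study names for ZBTB11 is CCGGAAG or CAGGAAG, called the consensus below, and it was searched on both strands. The study found it de novo in the high ZBTB11 peaks of its ChIP-seq, so the consensus comes from these same data. Examples of it under the strongest peaks of 4 members are shown first, since the results return to them. Sequences are from the hg38 reference, capitals mark the consensus, and the strand in brackets is the one printed.
GAS5, chr1:173868346-173868374 (-): ggaacaccgtcCCGGAAGtgaaatccccc
GAS5, chr1:173868301-173868329 (-): cgggcgacgtgCCGGAAGgaaatcactca
ZFAS1, chr20:49278615-49278643 (+): taagggaggttCAGGAAGccattcgttct
SNHG12, chr1:28582106-28582134 (+): ctgggcccacgCAGGAAGccgacccgcct
SNHG12, chr1:28581800-28581828 (+): ggaacggcgcgCAGGAAGgcaggcagagg
SNHG3, chr1:28505982-28506010 (-): ttacgaagtgcCCGGAAGtcctggaatgt

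SNHG5 and SNHG8 had no consensus under their strongest peaks. Both had CACGTG, a palindrome known as the E-box, within 9 bp of the summit, and this hexamer was searched only after the values had been seen. Their whole summit windows, 50 bp on each side of the summit, are printed with the hexamer in capitals.
SNHG5, chr6:85679252-85679352 (+): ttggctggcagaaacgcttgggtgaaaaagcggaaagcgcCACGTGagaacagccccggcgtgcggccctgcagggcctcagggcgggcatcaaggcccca
SNHG8, chr4:118278900-118279000 (+): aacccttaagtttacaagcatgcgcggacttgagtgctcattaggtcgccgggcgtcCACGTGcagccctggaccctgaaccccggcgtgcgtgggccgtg

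A ZBTB11 peak lay within 3 kb of a transcript start in all 10 members (exact 95% interval 69.2% to 100%). This rule is met by 69.7% of all genes, 67.4% of lncRNA genes and 87.7% of protein-coding genes, so a peak by itself says little about a gene. The list was made at a p-value below 0.05, and 92.3% of its peaks have a q-value above 0.05. A strong peak was therefore counted when the strongest peak within 3 kb had a p-value of 1e-05 or less. Strong peaks were found at 7 of the 10 members (34.8% to 93.3%), namely SNHG6, GAS5, ZFAS1, SNHG15, SNHG5, SNHG8 and SNHG12, against 22.3% of all genes, 17.5% of lncRNA genes and 46.9% of protein-coding genes. SNHG3, SNHG16 and SNHG1 had none. The 7 strong peaks were the same 7 that had a q-value of 0.05 or less, and the other 10 of the 17 ZBTB11 peaks near the members lay above it. The members have more annotated starts than most genes, with a median of 11.5 against 1 for lncRNA genes and 5 for protein-coding genes. With only the canonical start of each gene, 7 members still had a strong peak, against 20.9% of all genes, 16.8% of lncRNA genes and 43.4% of protein-coding genes.

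The members differed widely in the strength of these peaks. Fold enrichment is the height of a peak at its summit over the local background, as the authors' peak caller gave it, and together with the p-value it fixes how many fragments were stacked at the summit. The fold is not a ratio to the IgG library, since the peaks of each antibody were called separately. The genome-wide background was 1.35 fragments. Over the strongest peaks of the 10 members, the fold enrichment ran from 2.41 to 17.8 with a median of 6.74, and over the 7 strong ones from 4.89 to 17.8 with a median of 10.3. The median of the strong peaks of all lncRNA genes was 6.47 and that of protein-coding genes 6.74. By rank in the list of 346891 peaks, 2 members were among the first 1000, 5 others among the first 10000, and 3 came later.

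**Figure D1:**
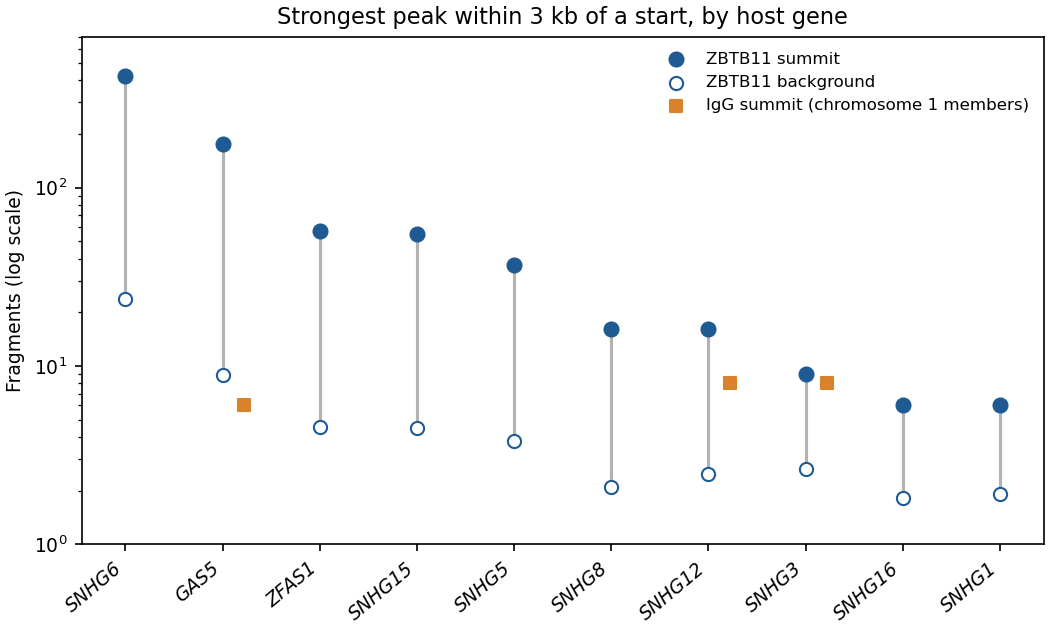
Fragments at the summit of the strongest ZBTB11 peak of each host gene, and of IgG peaks for the 3 genes on chromosomes that the IgG list covers, on a log scale. SNHG6 and GAS5 stand at 421 and 175 fragments, ZFAS1, SNHG15 and SNHG5 at 37 to 57, and SNHG3, SNHG16 and SNHG1 at 6 to 9, with the IgG peaks at 6 to 8.

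SNHG6 (ENSG00000245910) had the strongest peak of the members. It is a short host gene on chromosome 8 that carries 1 box C/D snoRNA, SNORD87. The peak, at 66925029 to 66926063 on the hg38 reference, ranked 301, with a fold enrichment of 17.1, a −log10 p of 357 and 421 fragments at the summit (exact Poisson 95% interval 382 to 463) over a background of 23.7. Only 0.451% of lncRNA genes and 1.96% of protein-coding genes had an equal or stronger peak. The summit lay in an exon, 14 bp from the nearest SNHG6 start and 32 bp downstream of the canonical one. No other protein-coding or lncRNA gene started under the peak, and the nearest protein-coding start, that of TCF24, was 29558 bp away. A CCGGAAG lay 35 bp from the summit and 3 bp from the canonical start, and another lay 484 bp from the summit.

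GAS5 came next, and its peak lay upstream of its canonical start. GAS5 (growth arrest specific, ENSG00000234741) carries 11 snoRNA genes, of which 10 are box C/D, the most of any member. Its peak on chromosome 1, at 173868037 to 173868810, ranked 769, with a fold enrichment of 17.8, a −log10 p of 157 and 175 summit fragments (150 to 203) over a background of 8.9. The summit was 408 bp upstream of the nearest GAS5 start on the minus strand, and no GAS5 start lay inside the peak, whose edge was 42 bp from the nearest one and 48 bp from the canonical one. The peak instead covered 4 starts of ZBTB37, a gene of the same family as ZBTB11, which is read in the opposite direction. The nearest of these was 5 bp from the summit, and the ZBTB37 start nearest to the canonical GAS5 start is 93 bp from it. Both CCGGAAG copies printed above lay under this peak, 43 and 88 bp from its summit, and only the nearer was within 50 bp. A CACGTG lay 213 bp from the summit. This peak cannot be given to GAS5 alone, and its summit falls in a UTR of ZBTB37 and in an intron of GAS5 transcripts that start further upstream. The RefSeq gene table places the start of GAS5 at another position, 173869045, for which the summit lies 642 bp inside the gene.

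ZFAS1 (ENSG00000177410) is also one side of a divergent pair. It hosts 3 box C/D snoRNAs, SNORD12, SNORD12B and SNORD12C, and lies head to head with ZNFX1, which encodes a helicase-like protein of antiviral defence. Its peak on chromosome 20, at 49277905 to 49278654, ranked 2442, with a fold enrichment of 10.4, a −log10 p of 42.1 and 57 summit fragments (43.2 to 73.9). The summit was 68 bp downstream of the nearest ZFAS1 start, 303 bp upstream of the canonical one and 87 bp from the nearest ZNFX1 start. The peak covered 4 starts of each gene. The consensus was not at the summit but 290 bp from it, 13 bp upstream of the canonical ZFAS1 start.

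SNHG15 (ENSG00000232956) had a peak of about the same height without a coding neighbour. It carries SNORA9, a box H/ACA snoRNA. Its peak on chromosome 7, at 44986123 to 44987333, was 1211 bp wide, the widest among the members, and ranked 2534 with a fold enrichment of 10.3, a −log10 p of 40.4 and 55 summit fragments (41.4 to 71.6). The intervals of SNHG15 and ZFAS1 overlap, so their order is within counting error. The summit was 15 bp upstream of the canonical start, 13 of its own starts lay inside the peak, and the nearest coding start, of the myosin gene MYO1G, was 7888 bp away. A CAGGAAG lay 3 bp from the summit, the shortest such distance among the members. SNHG15 and SNHG6 were thus alike in having a strong peak, their canonical start and the consensus together, under a peak that covered no coding start. A CCGGAAG lay 734 bp from the summit, and copies of CACGTG lay 425 and 555 bp from it.

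SNHG5 (ENSG00000203875), which hosts SNORD50A and SNORD50B, had the summit of its strong peak upstream of the gene. The peak on chromosome 6, at 85678924 to 85679554, ranked 3721, with a fold enrichment of 7.97, a −log10 p of 24.4 and 37 summit fragments (26.1 to 51). Its summit lay in intergenic sequence, 370 bp upstream of the nearest SNHG5 start and 554 bp upstream of the canonical one, and 1 SNHG5 start lay under the peak. The CACGTG printed above was 8 bp from this summit. No peak covered the canonical start, and the nearest one, whose edge was 157 bp away, was much smaller, with its summit 165 bp downstream and 8 fragments at a fold enrichment of 1.86. The nearest coding start, of ENSG00000271793, was 569 bp from the summit of the strong peak. That start lies 15 bp from the canonical SNHG5 start, on the same strand.

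SNHG8 and SNHG12 had the smallest of the strong peaks, with 16 summit fragments each (9.15 to 26). SNHG8 (ENSG00000269893) carries SNORA24, whose own start lay under the peak, 240 bp from the summit. Its peak on chromosome 4, at 118278563 to 118279203, ranked 7576 with a fold enrichment of 5.5 and a −log10 p of 9.96, covered 9 SNHG8 starts, and had its summit 242 bp downstream of the canonical start, with CACGTG 9 bp away. The nearest coding start, of PRSS12, was 19825 bp from it. SNHG12 (ENSG00000197989) hosts 4 snoRNAs, SNORA16A, SNORA44, SNORA61 and SNORD99. Its peak on chromosome 1, at 28581700 to 28582573, ranked 8341 with a fold enrichment of 4.89 and a −log10 p of 8.87. Its summit was 854 bp downstream of the canonical start, which lay 413 bp outside the peak, but the peak covered 7 starts of SNHG12 transcripts that begin further downstream. The consensus was 12 bp and 318 bp from this summit, and the nearest coding start, of RAB42, was 10068 bp away. The fragment intervals of SNHG8 and SNHG12 also overlap that of SNHG3, the next member down, although the latter has no strong peak.

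**Figure D2:**
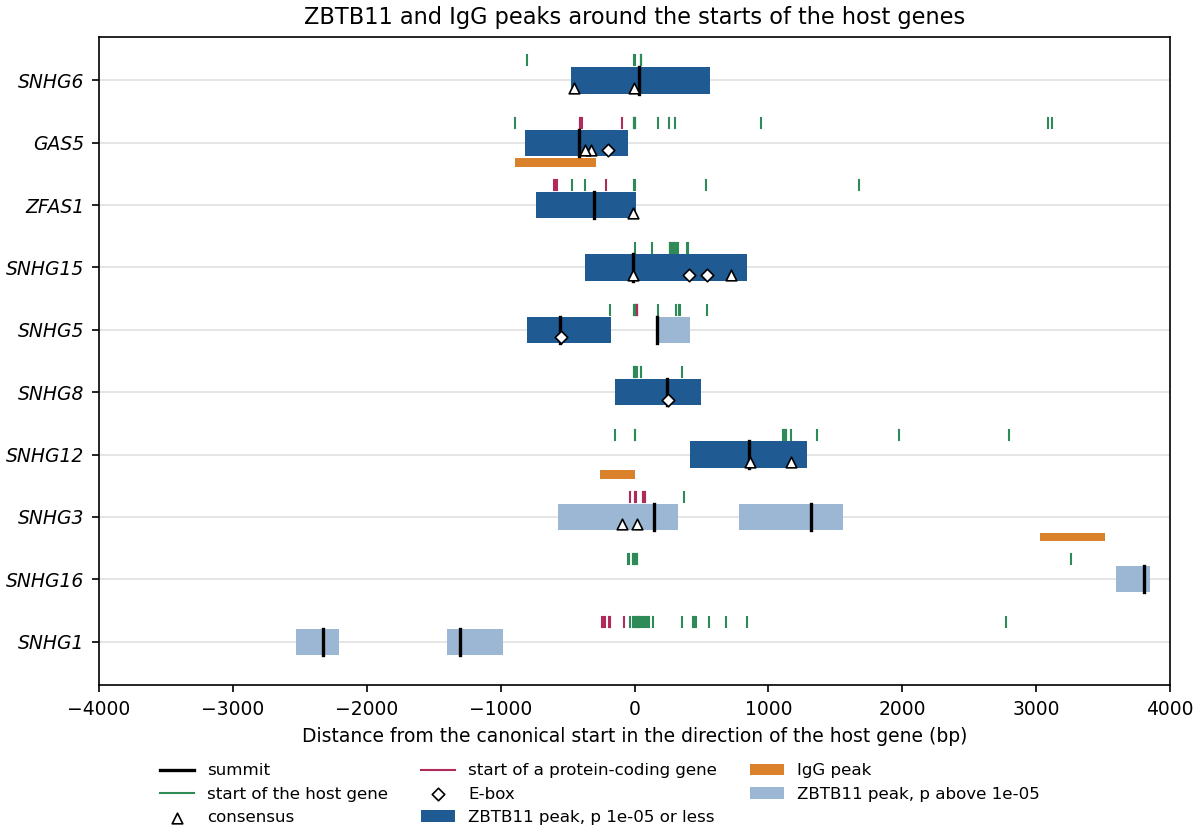
ZBTB11 peaks (dark blue at a p-value of 1e-05 or less, light blue above it) and IgG peaks (orange) by distance in bp from the canonical start of each host gene, read in the direction of that gene, with summits as black lines, starts of host genes and protein-coding genes as ticks, and motifs as symbols. The GAS5 peak stops 48 bp before the canonical start, whereas the SNHG6 and SNHG15 summits lie 32 and 15 bp from it and the SNHG12 summit 854 bp downstream.

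The remaining 3 members had weak peaks with a q-value above 0.05, like 92.3% of the list. SNHG3 (ENSG00000242125), host of SNORA73A and SNORA73B, had its strongest peak on chromosome 1 at 28505411 to 28506302, ranked 37107, with 9 summit fragments (4.12 to 17.1), a fold enrichment of 2.73 and a −log10 p of 3.35. This peak covered 2 SNHG3 starts and 6 starts of RCC1, the exchange factor of the Ran GTPase, which is read in the same direction, so it cannot be given to SNHG3 alone. A CCGGAAG lay 126 bp from the summit, 16 bp downstream of the canonical SNHG3 start. The strongest peak of SNHG3 therefore sat on its promoter and held the consensus, at a height at which 25.1% of lncRNA genes and 59.6% of protein-coding genes stood as high or higher.

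SNHG16 and SNHG1 had no peak at their main start. SNHG16 (ENSG00000163597) hosts SNORD1A, SNORD1B and SNORD1C, and its strongest peak on chromosome 17, at 76563510 to 76563775, ranked 85256 with 6 fragments (2.2 to 13.1), a fold enrichment of 2.49 and a −log10 p of 2.58. The summit was 5809 bp downstream of the canonical start, and the edge of the nearest peak lay 3593 bp from that start. SNHG1 (ENSG00000255717) carries 9 snoRNA genes, 8 of them box C/D. Its strongest peak on chromosome 11, at 62858130 to 62858449, ranked 166207, also with 6 fragments (2.2 to 13.1), a fold enrichment of 2.41 and a −log10 p of 2.45, and lay 2329 bp upstream of the canonical start, in an intron of SLC3A2. SLC3A2 encodes the heavy chain of amino acid transporters and has an annotated start 82 bp from the canonical SNHG1 start on the opposite strand, and no peak edge lay within 953 bp of an annotated SNHG1 start. No peak covered any annotated start of either gene, the nearest edge to one of SNHG16 being 332 bp away, and the order of both genes is within counting error. The lists hold no signal outside peaks, so weaker occupancy at these starts could not be assessed.

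**Figure D3:**
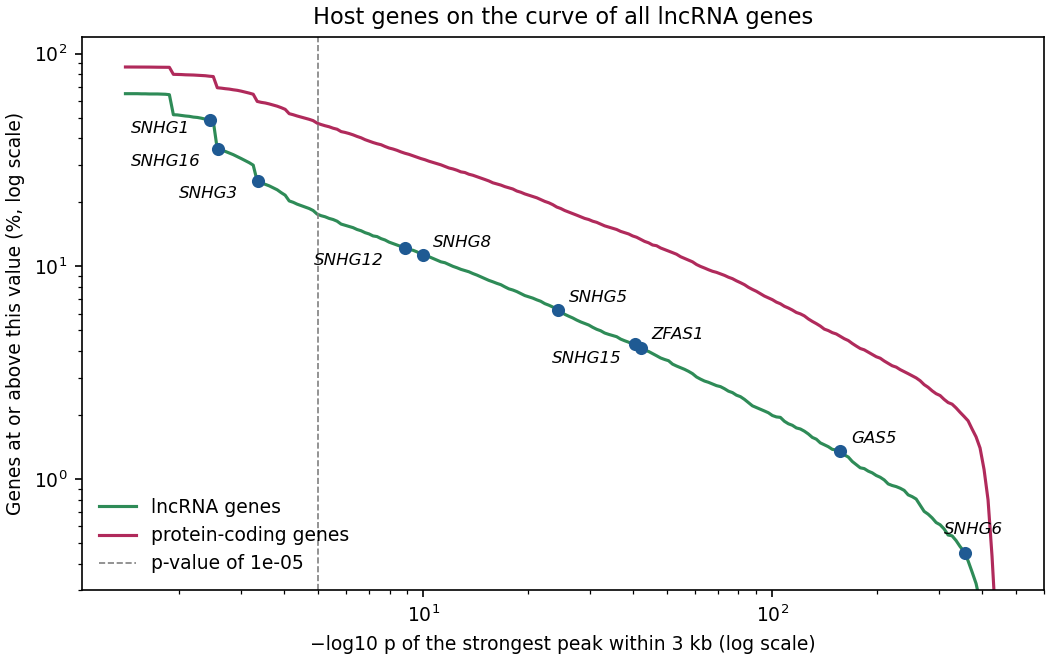
Share of lncRNA genes (green) and protein-coding genes (red), on a log scale, whose strongest ZBTB11 peak within 3 kb reached a given −log10 p, also on a log scale, with the 10 host genes as points on the lncRNA curve. SNHG6 and GAS5 lie where 0.451% and 1.35% of lncRNA genes remain, ZFAS1, SNHG15 and SNHG5 between 4.15% and 6.21%, SNHG8 and SNHG12 at 11.3% and 12.2%, and SNHG3, SNHG16 and SNHG1 at 25.1%, 35.5% and 48.5%.

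On the chromosomes that the IgG list covers, the strong GAS5 peak held more fragments than the control. The lists give no library totals, so these counts are not scaled to depth. All 3 members there had IgG peaks within 3 kb of a start, a rule that 50.6% of the genes on chromosomes 1, 10 and 21 meet in the IgG list. There were 4 such IgG peaks, with 6 to 8 summit fragments each, and none had a q-value of 0.05 or less. At GAS5, the IgG peak at 173868278 to 173868884 overlapped the ZBTB11 peak, and held 6 fragments (2.2 to 13.1) at a fold enrichment of 2.44 where the ZBTB11 peak held 175 (150 to 203). The second IgG peak near GAS5, at 173863028 to 173863641, also held 6 fragments and overlapped no ZBTB11 peak. At SNHG12, the IgG peak at 28582980 to 28583242 held 8 fragments (3.45 to 15.8) at a fold enrichment of 2.83 and did not overlap the ZBTB11 peak of 16 fragments (9.15 to 26). At SNHG3, the IgG peak at 28509009 to 28509491 held 8 fragments (3.45 to 15.8) at a fold enrichment of 2.63 and overlapped no ZBTB11 peak, and the ZBTB11 peak at the SNHG3 start held 9 (4.12 to 17.1). For SNHG12 and SNHG3 the peaks of both antibodies lie at different places, so their heights were not compared.

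The summits of the strong peaks lay within 408 bp of a start and in GC-rich sequence. Their summits lay 14 to 408 bp from the nearest own start, with a median of 110 bp, and 3 of the 7 lay within 100 bp. The median was 94 bp for the strong peaks of all genes, 96 bp for protein-coding genes and 262 bp for lncRNA genes, most of which have fewer annotated starts than the members. In the summit windows of the 7 strong peaks, 61.4% to 76.2% of bases were G or C with a median of 66.3%, beside a median of 67.3% for the strong peaks of all genes. The windows of SNHG3, SNHG16 and SNHG1 held 48.5%, 39.6% and 47.5%, below each of the 7. CpG dinucleotides numbered 5 (SNHG12) to 13 (SNHG6) in the strong windows and 1 or 2 in the other 3, and were not counted for all genes. The SNHG16 and SNHG1 summits lay 2548 and 2298 bp from the nearest own start, so their windows are not like those of the 7. Among the 7, GC content did not follow peak strength, with 68.3% at SNHG6, 66.3% at GAS5 and 76.2% at ZFAS1. The part of composition in the result was not tested.

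Of the 7 strong peaks, 2 covered a protein-coding start. Of the 10 strongest peaks, 3 covered a protein-coding start, those of GAS5 (ZBTB37), ZFAS1 (ZNFX1) and SNHG3 (RCC1), and the first 2 are among the 7 strong ones. Among all lncRNA genes with a strong peak, 62.9% (61.3% to 64.6%) had one that covered a protein-coding start. The other 5 strong peaks of the members covered none, and these belong to SNHG6, SNHG15, SNHG5, SNHG8 and SNHG12. The share among the members rests on few genes. When starts of coding or lncRNA genes within 1 kb of the peak also counted, the 3 of 10 became 4. SNHG1, with a start of SLC3A2 82 bp away, had no peak over that gap, whereas the divergent pairs of GAS5 and ZFAS1 each had a strong one.

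The consensus lay within 50 bp of the summit in 4 of the 10 members, SNHG6, GAS5, SNHG15 and SNHG12, all with strong peaks. Over the strong peaks alone this is 4 of 7 (57.1%), a share that rests on few genes. The consensus was derived from high ZBTB11 peaks of these data, so its presence at strong summits is no independent evidence. The strong peaks of all genes held it in 23.8% of summit windows (22.9% to 24.7%) and those of lncRNA genes in 23.9% (22.4% to 25.5%). Of the 14 flanking windows 500 bp to either side of the 7 strong summits, 1 held it. SNHG6 and GAS5 carried CCGGAAG at the summit, and SNHG15 and SNHG12 carried CAGGAAG. The summit windows of the strong peaks of all genes held CCGGAAG in 16.8% and CAGGAAG in 7.84%. Over the whole strongest peak, 6 of the 10 members held the consensus, with ZFAS1 and SNHG3 added, and SNHG5, SNHG8, SNHG16 and SNHG1 did not. These peaks are 266 to 1211 bp wide, and the share for whole peaks of all genes was not counted. The 6 of 10 therefore cannot be set against the shares of summit windows. CACGTG lay in the summit windows of 2 members, SNHG5 and SNHG8, and in 2.05% (1.77% to 2.37%) of those of the strong peaks of all genes. No summit window held both motifs, and ZFAS1 was the strong peak with neither at its summit. A match is a description of letters and not a site of binding.

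Of the 10 members, 8 have an entry in the RefSeq promoter table (GRCh38.p14), which spans 250 bases before to 50 after each start, and SNHG6 and SNHG15 do not. The consensus occurred in 3 of the 8 promoters, those of SNHG12, SNHG3 and ZFAS1, and in 21.8% of all 35116. CACGTG occurred in 0 of the 8 and in 7.26% of all. A start at a cytosine followed by at least 4 pyrimidines, counted as a TOP start after the values had been seen, occurred in 3 of the 8 and in 4.07% of all promoters. The 20 bases around these 3 starts and that of SNHG1 are printed in the direction of the gene, with the pyrimidine run at the start in capitals.
SNHG12, chr1:28581859-28581878 (-): agcgcCCTTTCTCCCCgccg
SNHG5, chr6:85678719-85678738 (-): tcggtCTTTTacgtcggcct
ZFAS1, chr20:49278637-49278656 (+): tcgttCTTTCgcgtctgcgg
SNHG1, chr11:62855871-62855890 (-): tcgttCTCatttttctactg
Strong peaks within 3 kb were found both with such a start (SNHG12, SNHG5 and ZFAS1) and without one in this table (GAS5 and SNHG8). SNHG1, SNHG3 and SNHG16 had neither a strong peak nor such a start in this table. For GAS5 this table uses the start at 173869045 and not the canonical one at 173867989. Only the start in this table was read for each gene. Other annotated starts were not examined, so GAS5, SNHG8, SNHG1, SNHG3 and SNHG16 cannot be said to lack a TOP start. For SNHG12 the start in this table lay under the ZBTB11 peak and differs from that of the RefSeq gene table, 28582983, which lay outside it.

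Other genes of the same pathway were counted by the same rules, from lists of names. Of 20 other non-coding hosts, 19 had a peak within 3 kb, against 67.4% of lncRNA genes. A strong peak was found at 10 (50%) of the 20, against 17.5% of lncRNA genes. The median fold enrichment was 3.72. SNHG10 led this list at rank 502 with 273 fragments, its summit 14 bp from a start under a peak that also covered GLRX5, and SNHG19 followed at rank 2267 with 58 fragments, under a peak shared with TRAF7. SNHG18 and SNHG30 stood at 5 and 4 fragments, and SNHG29 had no peak. Of the 10 strong peaks of these other hosts, 5 covered a coding start, against 62.9% among lncRNA genes with a strong peak. The 10 members thus had a higher median fold (6.74) than the other non-coding hosts, as a description of these lists, with no test.

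Among 34 protein-coding hosts, all had a peak, against 87.7% of protein-coding genes. Of these hosts, 27 (79.4%) had a strong one, against 46.9% of protein-coding genes. The median fold enrichment was 5.65. The ribosomal protein genes RPS20, at rank 210 and 472 fragments, and RPS3, at rank 1065 and 120 fragments, led this list. TNPO2, an import receptor gene, stood at 8 fragments. RPS20 shared its peak with the non-coding gene CERNA3. Of 11 genes for snoRNP proteins and their assembly factors, 10 (90.9%) had a strong peak, against the same 46.9%. Their median fold enrichment was 7.7. RUVBL1, an ATPase of the assembly complex, stood at rank 66 with 442 fragments, its summit 500 bp from its start under a peak that also covered EEFSEC. SHQ1, an assembly factor of box H/ACA particles, stood at rank 1759 with 69 fragments 9 bp from its start. RRP9, a protein of the U3 particle, stood at 10 fragments under a peak shared with PARP3, and NAF1, the other box H/ACA assembly factor, at 6 fragments and without a strong peak.

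**Figure D4:**
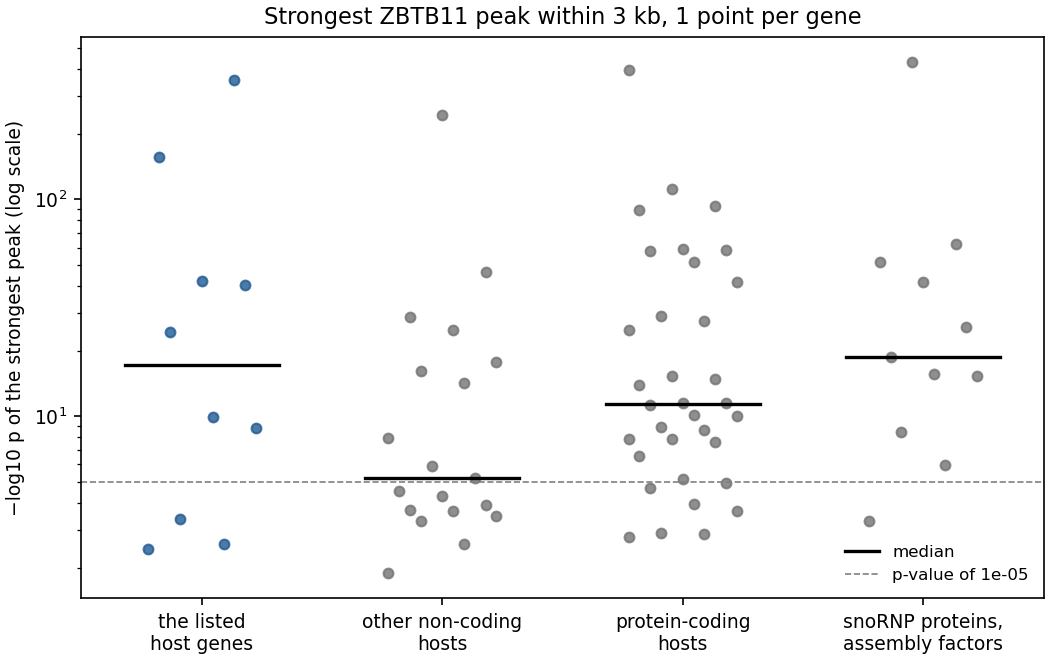
Strongest ZBTB11 peak within 3 kb (−log10 p, log scale) of each gene in the 4 lists, as points, with the p-value of 1e-05 as a dashed line. Above the line are 7 of 10 members, 10 of 20 other non-coding hosts, 27 of 34 protein-coding hosts and 10 of 11 snoRNP genes. By the same rule, 17.5% of all lncRNA genes and 46.9% of all protein-coding genes lie above it.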

How the data were processed

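ChIP-seq used 3 samples, of which the ZBTB11 and IgG libraries were analysed through their peak lists while the Input library is not analysed here. Groups were taken from the sample titles. According to the methods of the study, paired-end reads were aligned to hg38 with BWA and peaks were called with MACS for each antibody separately at a p-value below 0.05. The authors' narrow peak files hold, per peak, a fold enrichment (ratio of summit to local background). The deposited significance values are −log10 p and −log10 q, and the deposited score and the summit offset were used to check and place peaks. The layout is that of a later MACS release than the one named. The lists give no library totals, so depth was read at each summit.

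Transcript starts came from GENCODE release 44 and snoRNA genes, promoters and alternative starts from RefSeq (GRCh38.p14). Peaks off chromosomes 1 to 22, X and Y were left out (1501 for ZBTB11, 1165 for IgG). The strongest peak of a gene was that with the largest −log10 p within 3 kb of a start. Summit fragments and background were solved from fold and p-value under a Poisson model with a pseudocount of 1 fragment, to within 0.001 of the listed −log10 p, which succeeded for 100% of the peaks tried. The scripts were tested on simulated data. Intervals of counts are exact Poisson and those of shares of members exact binomial (shares of all genes Wilson), at 95%. No p-value across genes was computed. Named genes were all members, genes starting under their strongest peaks, the nearest coding gene, and the 2 strongest and 2 weakest of each other list, of which 1 is not reported here. The members, lists and tests were chosen with earlier results of these data known. Alternatives covered the distance, the starts, the peak threshold, the motif and its window. Python 3.11.15, numpy 2.4.6, scipy 1.17.1, pysam 0.24.0 and matplotlib 3.10.9 were used.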

Additional observations from a re-analysis of the deposited data

How the results depend on the processing

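Of 34 alternatives to 10 results, 27 stayed within 1.5 times the main value and 7 moved, and 5 were added after seeing the data. The number of members with a strong peak ranged from 5 (at a p-value of 1e-10 or less, or without peaks over a coding start) to 7. The median distance from summit to start moved from 182 to 358 bp when only canonical starts were used. The 4 members with the consensus at the summit became 2 with 25 bp on each side, 2 with CCGGAAG only, 8 with the GGAA core, which 80% of the strong windows of all genes hold, and 2 with CACGTG in its place. The 3 members with an IgG peak became 0 at a q-value of 0.05 or less and 0 at a p-value of 1e-05 or less. No paired analysis was possible because there is 1 library per antibody. Without replicates, the spread between libraries is unknown, and peaks of 5 to 9 fragments cannot be told apart in height.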

Other observations

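Outside the members' strongest peaks, further ZBTB11 peaks near 6 of the 10 genes were small. GAS5 had 5 fragments in an intron at 173861791 to 173862048 (rank 158714), ZFAS1 had 5 at rank 304958, 12331 bp from the canonical start, SNHG3 had 8 at rank 169394, SNHG5 had 7 at rank 64201, and SNHG16 and SNHG1 had 5 each at ranks 190909 and 189600. In the list of other non-coding hosts, SNHG9 and the ribosomal protein gene RPS2 had the same strongest peak, ranked 31635, a pair chosen after the values were seen.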
